A study of Mus musculus with 8 samples.

Results

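The cells described here are 396 of the 45328 barcodes that passed the cell filters. They share a minimum summed level of the primary granule genes *Elane*, *Mpo* and *Prtn3*, and a cell need not hold all 3. They were chosen by 3 measured values per barcode. *Elane*, *Mpo* and *Prtn3* together had to reach 10 unique molecular identifiers (UMIs, each one captured transcript) per 10000 UMIs, *Mcpt8* and *Prss34* together had to stay under 20 per 10000, and *Irf8* could hold at most 1 UMI. Passing barcodes held 500 to 6000 genes and at most 25% mitochondrial UMIs, and the chosen barcodes were 0.874% of them. The working name of the group was neutrophil-lineage myeloid progenitors, but most of its cells carried gene sets that this name does not cover, so they are called primary granule cells below.

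The study profiled bone stromal cell suspensions of C57BL/6 mice by droplet-based single-cell RNA sequencing (10x Genomics 3' chemistry). Control preparations came from 12-week-old wild-type females without fracture. Fracture preparations came from females whose left leg was broken by bending at 10 weeks of age, held with an intramedullary nail and collected on day 14, also at 12 weeks. Each group was read from its sample titles as 2 cell preparations, Control-1 and Control-2 against Fracture-1 and Fracture-2. The titles list rep1 and rep2 for each, which were taken as 2 libraries of the same preparation and summed here. The titles do not state this, and n = 2 per group throughout rests on it. Before loading, magnetic beads had removed cells with lineage antigens, CD45 or CD117 from all preparations. The number of animals behind a preparation is not given in the sources used here, so the spread between preparations may be partly technical.

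In the granulocyte lineage, *Elane*, *Mpo*, *Prtn3* and *Ctsg* are transcribed in a short window at the promyelocyte stage and their proteins fill the primary (azurophil) granules. Secondary granule genes such as *Ltf*, *Camp* and *Ngp* follow later, under the factor Cebpe, while Irf8 directs progenitors toward monocytes and dendritic cells. The same early granule genes are also transcribed at low level in progenitors of basophils, mast cells and eosinophils, which then switch to *Cpa3* and *Fcer1a* or to *Prg2* and *Epx*.

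The stretches upstream of the 3 selecting genes and of *Ctsg*, a further primary granule gene that the selection did not use, are shown because the results turn on these genes. Sequences are those of RefSeq promoter windows on GRCm38.p6, 5′ to 3′ on the gene's strand, cut where the first GENCODE exon in the window begins. The *Elane* stretch is chr10:79886062-79886246 (plus strand), *Prtn3* is chr10:79879417-79879613 (plus), *Ctsg* is chr14:56102575-56102824 (minus) and *Mpo* is chr11:87793534-87793580 (plus). The *Elane*, *Ctsg* and *Mpo* stretches end next to the annotated gene start, whereas the *Prtn3* stretch lies inside a longer gene model but outside its exons. Capitals mark GAGGAA, a core letter string of PU.1 and other ETS factors, and in *Ctsg* also the reverse complement of TGTGGT, a RUNX core.

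Elane: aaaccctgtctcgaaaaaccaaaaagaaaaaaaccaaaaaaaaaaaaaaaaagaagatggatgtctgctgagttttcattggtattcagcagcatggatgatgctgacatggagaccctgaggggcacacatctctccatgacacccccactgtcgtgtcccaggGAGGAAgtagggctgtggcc
Prtn3: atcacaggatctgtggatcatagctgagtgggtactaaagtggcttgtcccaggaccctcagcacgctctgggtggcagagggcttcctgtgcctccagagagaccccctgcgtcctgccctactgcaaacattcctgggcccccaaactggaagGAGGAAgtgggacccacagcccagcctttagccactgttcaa
Ctsg: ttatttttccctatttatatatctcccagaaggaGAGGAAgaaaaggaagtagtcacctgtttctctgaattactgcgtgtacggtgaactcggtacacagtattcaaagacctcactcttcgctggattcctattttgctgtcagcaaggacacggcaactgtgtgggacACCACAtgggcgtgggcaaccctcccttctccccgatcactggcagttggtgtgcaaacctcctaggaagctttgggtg
Mpo: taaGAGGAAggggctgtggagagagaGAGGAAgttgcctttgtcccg

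GAGGAA stood once each in the *Elane*, *Prtn3* and *Ctsg* windows and 2 times in the *Mpo* window, and 28.3% of 32817 RefSeq promoter windows of 300 bases held it on either strand. TGTGGT was found only in the *Ctsg* window among these 4, on the opposite strand, and in 16.8% of all windows. TTGCNNAA, a C/EBP core, was in none of the 4 windows and in 10.8% of all. These letter matches are a description of the windows and say nothing about binding.

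Libraries held 56543151 to 89126291 UMIs in 4464 to 7485 barcodes. Median UMIs of the primary granule cells were 9337, 14817, 9149 and 8880 in Control-1, Control-2, Fracture-1 and Fracture-2. Totals went down to 529 UMIs in Control-1, 725 in Control-2, 4767 in Fracture-1 and 5449 in Fracture-2, and the Control tables list barcodes down to 1 UMI and the Fracture tables none under 1929. A further 107 Control barcodes and 0 Fracture barcodes met the 3 gene thresholds but were removed by the cell filters. Doublets were called by Scrublet and kept, and 11 primary granule cells were among them. No barcode sequence recurred among the primary granule cells of different libraries, and 9 were also present as another cell in some other library. In Control-1, 367 genes with names beginning with U or n hold no UMI, and these were left out of every level and fit.

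Primary granule cells numbered 266, 94, 23 and 13 in Control-1, Control-2, Fracture-1 and Fracture-2. They made up 2.09% and 1.19% of Control barcodes against 0.194% and 0.102% of Fracture barcodes. The groups did not overlap, with means of 1.64 ± 0.636% and 0.148 ± 0.0651% (SD, n = 2), and the two-sided exact permutation p was 0.333, the smallest that 2 against 2 preparations can give. Exact binomial 95% intervals, which cover counting error only, were 1.84 to 2.35% and 0.960 to 1.45% in Control and 0.123 to 0.291% and 0.0542 to 0.174% in Fracture.

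A further pair of blood cell classes selected on genes also had lower shares in both Fracture preparations than in either Control preparation. Cells that met the same granule gene thresholds but held 2 or more *Irf8* UMIs (Irf8-positive cells) were 1.94% and 0.644% of Control and 0.0674% and 0.0469% of Fracture barcodes. Cells with *Mcpt8* and *Prss34* at 20 or more per 10000 (Mcpt8/Prss34-high cells) were 12.4% and 8.69% against 0.228% and 0.196%. A change in their number and a change in the numbers of other cells or in bead depletion cannot be told apart in such shares.

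**Figure D1:**
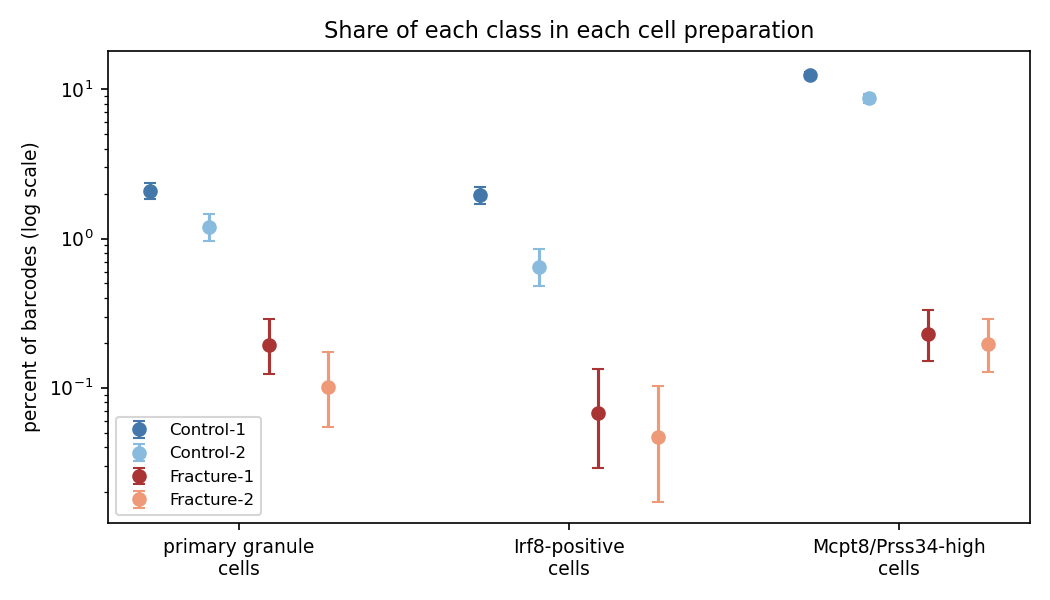
Share of passing barcodes (percent, log scale) in each of 3 classes selected on genes, with 1 point per cell preparation and exact binomial 95% intervals. Primary granule cells lie at 2.09% and 1.19% in the Control preparations and at 0.194% and 0.102% in the Fracture preparations.

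The granule gene and *Mcpt8* and *Prss34* thresholds both had barcodes close by on either side, and the *Irf8* limit had fewer. With *Elane*, *Mpo* and *Prtn3* at 5 to 10 per 10000, just outside, there were 236 barcodes with a median of 1839 UMIs, of which 30.5% held a *Ctsg* UMI. At 10 to 20, just inside, there were 124 with a median of 5912 UMIs, of which 62.9% held one. For *Mcpt8* and *Prss34*, 80 cells lay at 10 to 20 per 10000 inside the limit and 70 at 20 to 40 outside it, whereas 1200 granule-gene-positive barcodes were at 40 or more. For *Irf8*, 364 cells held 0 UMIs and 32 held 1, and outside the limit 14 barcodes held 2, 12 held 3 and 287 held 4 or more. CD45 and CD117 depletion had left cells with the corresponding transcripts, since *Ptprc* (CD45) had a UMI in 60.1% and *Kit* (CD117) in 56.3% of primary granule cells. Endothelial barcodes, defined below, held a *Ptprc* UMI in 0.214% in Control and 0.216% in Fracture and a *Kit* UMI in 5.45% and 16.4%.

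*Mpo*, which encodes myeloperoxidase, was the most widespread of the selecting genes, with a UMI in 94.4% of the cells, followed by *Prtn3* (proteinase 3) in 88.6% and *Elane* (neutrophil elastase) in 57.1%. All 3 genes had a UMI in 215 cells, 2 of them in 125 and only 1 in 56. Summed over the cells, *Mpo* gave 43.0%, *Prtn3* 29.5% and *Elane* 27.6% of the selecting UMIs. *Mpo* stood at 4105, 3833, 3549 and 3040 CPM (UMIs of the gene per 1000000 UMIs of the cells of a preparation) in Control-1, Control-2, Fracture-1 and Fracture-2. *Elane* stood at 1921, 3438, 4601 and 2011 CPM, and *Prtn3* at 2097, 3355, 5967 and 2762 CPM. The 3 genes did not keep 1 order of preparations, and these values chose the cells, so no test is attached.

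*Ctsg*, which encodes cathepsin G and was not used in the selection, had a UMI in 82.1% of the cells, compared with 7.06% of Control and 0.324% of Fracture endothelial barcodes. The endothelial barcodes were chosen to lack every selecting gene, so this background may be too low. They were also shallower, with medians of 4652 and 7739 UMIs against 10501 and 9015 in Control and Fracture. The level of *Ctsg* in primary granule cells was 3190, 3500, 4149 and 3400 CPM, with no gap between the groups. *Srgn*, the proteoglycan serglycin that packs granule proteases, stood at 3324, 3521, 3051 and 3645 CPM. *Ms4a3*, a membrane protein of granulocyte and monocyte progenitors, stood at 722, 971, 985 and 932 CPM. *Bpi*, another azurophil granule gene, held 0 UMIs in all 4 preparations.

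Genes of the mature neutrophil list differed widely in level. The list of 14 genes summed to 405, 7859, 27378 and 28000 CPM in Control-1, Control-2, Fracture-1 and Fracture-2. In all but Control-1 the sum came mostly from *S100a8* and *S100a9*, whose levels follow below. In Control-1 these 2 genes stood at only 33.9 and 4.47 CPM. *Msrb1* stood at 179, 213, 189 and 237 CPM and *Wfdc21* at 7.83, 138, 323 and 294 CPM. In contrast, *Ly6g*, *Fpr1* and *Stfa2l1* held 0 UMIs in all primary granule cells, *Retnlg* had a UMI in 0.505% and *Mmp8* in 1.26%, beside 0 of 935 and 0.214% of Control and 0.486% and 1.57% of Fracture endothelial barcodes. *Cxcr2*, the chemokine receptor by which neutrophils leave the marrow, had a UMI in 7.07% of the cells, at 7.08, 8.02, 4.19 and 8.17 CPM, and in 0 of 935 Control and 0.162% of Fracture endothelial barcodes. Markers of T and B cells were absent or rare, with *Cd3e* at 0 and *Cd79a* in 0.253% of the cells.

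Sets of cells inside the group were separated by genes outside the selection. After values had been seen, 3 short lists were drawn up around *Prg2* (eosinophil granule genes), *S100a8* (*S100a8*, *S100a9*, *Camp*, *Ngp*, *Ltf*, *Lcn2*, *Fcnb*) and *Cpa3* (*Cpa3*, *Ms4a2*, *Fcer1a*, *Gata2*, *Hdc*). A cell was placed in a set at 10 or more per 10000 UMIs and at least 3 UMIs of the list, the Prg2 and S100a8 lists going before the Cpa3 list, and cells with under 5 selecting UMIs were kept apart. The Cpa3 set held 193 cells, the Prg2 set 53, the S100a8 set 17, and 69 cells held none of the lists. The low-count cells numbered 64, had a median of 1104 UMIs and 2 selecting UMIs, and all came from Control. The Cpa3 and Prg2 lists overlapped, since 43 of the 60 cells with the Prg2 list also held the Cpa3 list. Only 1 of the 18 cells with the S100a8 list also held the Cpa3 list, and 1 also held the Prg2 list. None of these sets is an independent finding, and the levels of the list genes in them are descriptions.

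*Mpo* dominated the selecting UMIs in the Cpa3 set, where it made up 71.9%, 60.4%, 74.4% and 71.7% in Control-1, Control-2, Fracture-1 and Fracture-2. In the S100a8 set it made up 20.5%, 13.6%, 11.6% and 13.4%, and *Elane* and *Prtn3* gave the rest in near-equal parts. In the remaining cells *Mpo* made up 37.9%, 21.3%, 28.6% and 56.1%, the last in 1 cell. These genes chose the cells, and the make-up is given as a description.

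**Figure D2:**
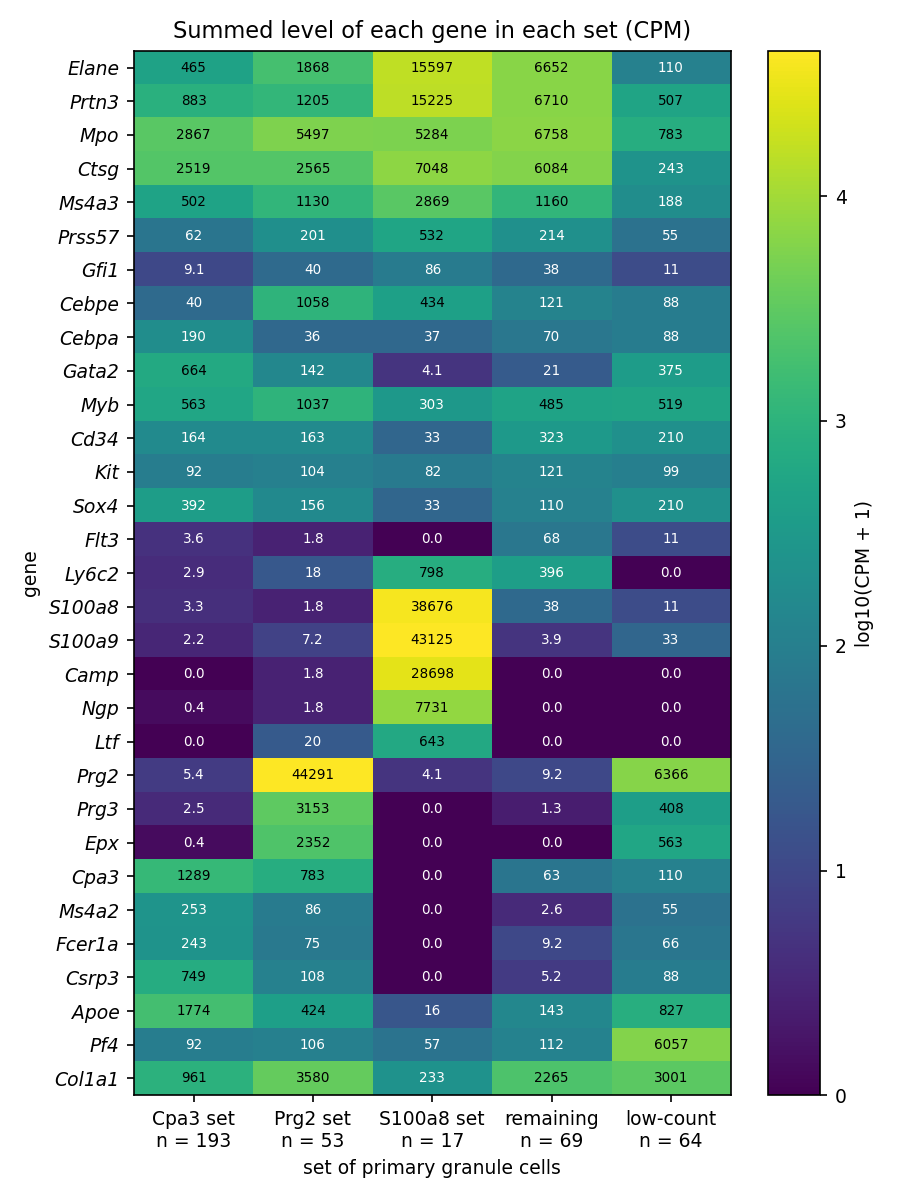
Summed level of 31 genes (rows) in the 5 sets of primary granule cells (columns), in CPM over all preparations and coloured by log10(CPM + 1). *Elane* and *Prtn3* are at 15597 and 15225 CPM in the S100a8 set and at 465 and 883 CPM in the Cpa3 set, while *Mpo* stays between 2867 and 6758 CPM in all sets but the low-count cells.

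The Cpa3 set was the largest and held the genes of basophil and mast cell progenitors at moderate level. *Cpa3*, mast cell carboxypeptidase, stood at 1289 CPM in it, compared with 63.0 CPM in the remaining cells. *Gata2*, a factor that basophil and mast cell progenitors keep, stood at 619 CPM in Control-1, 791 in Control-2 and 499 in the Fracture preparations, with a UMI in 96.4% of the set. It is among the genes that placed cells in this set, and 40.5% of Control and 32.9% of Fracture endothelial barcodes also held a *Gata2* UMI. *Apoe* (1774 CPM), *Lmo4* (2417 CPM), *Ifitm1* (1630 CPM) and *Csrp3* (749 CPM) were each higher in the Cpa3 set than in any of the other 3 sets with 5 or more selecting UMIs. *Cebpa*, the factor that opens the granulocyte programme, stood at 190 CPM, and *Cebpe* at 39.8 CPM. *Mki67* was at 369 CPM in this set, above the other sets.

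The Prg2 set held the eosinophil granule genes. *Prg2*, the major basic protein of eosinophils, reached 44291 CPM, *Prg3* 3153 CPM and *Epx*, eosinophil peroxidase, 2352 CPM. Of all *Prg2* UMIs in primary granule cells, 97.6% fell in this set, which held 12.6% of the cells' UMIs. *Cebpe* stood at 1044 CPM in Control-1, 1069 in Control-2 and 1165 in the 2 Fracture cells, and 92.5% of the set had a *Cebpe* UMI. *Myb* was also at 1037 CPM. *Il5ra* and *Ccr3*, receptors of eosinophils and their precursors, had 4 and 1 UMIs in the set, in 7.55% and 1.89% of its cells.

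The S100a8 set held the neutrophil granule genes of the working name. *Elane* stood at 15597 CPM and *Prtn3* at 15225 CPM in it, *Ctsg* at 7048, *Ms4a3* at 2869 and *Prss57*, a further neutrophil granule protease, at 532 CPM. *S100a8* and *S100a9*, the calprotectin subunits, reached 38676 and 43125 CPM, and the secondary granule genes *Camp* and *Ngp* 28698 and 7731 CPM. *Gfi1*, a repressor needed for neutrophil formation, was highest here at 85.9 CPM. *Gata2* was at 4.09 CPM and *Cpa3*, *Fcer1a* and *Prg3* were at 0. *Ctsg* spread widely within the set, at 10789, 6479, 5825 and 1290 CPM in Control-1, Control-2, Fracture-1 and Fracture-2, the last from 2 cells and below the 3487 CPM of the Cpa3 set there. The pooled levels of the S100a8 list came from a minority of the cells, separated after the values were seen. In 7 of the 17 cells the list stood at 2676 to 4288 per 10000 UMIs, with selecting genes at 12.6 to 345 per 10000, and in the other 10 it stood at 11.3 to 241.5, with selecting genes at 312 to 644. The 7 cells were 0, 2, 3 and 2 and the 10 cells 3, 4, 3 and 0 in Control-1, Control-2, Fracture-1 and Fracture-2, so the cells highest in the list and those highest in the selecting genes were mostly different ones.

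The remaining 69 cells held the selecting genes without any of the lists. *Elane*, *Mpo* and *Prtn3* stood at 6652, 6758 and 6710 CPM, *Ctsg* at 6084 and *Ms4a3* at 1160 CPM. *Cd34* (323 CPM) and *Flt3* (68.2 CPM), surface proteins of early progenitors, were higher than in the other sets, and 81.3% of *Flt3* UMIs of the primary granule cells lay in these cells. *Ly6c2* stood at 396 CPM here and at 798 CPM in the S100a8 set, against 2.90 CPM in the Cpa3 set. *Csf3r*, the receptor of G-CSF, had 59.8% of its UMIs in the remaining cells, which held 17.2% of all UMIs of primary granule cells.

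The low-count cells passed the threshold on few UMIs. They held *Pf4*, a platelet gene, at 6057 CPM and the bone matrix gene *Col1a1* at 3001 CPM, and *Ptprc* had a UMI in 10.9% of them compared with 76.7% of the Cpa3 set. The part of free RNA in their selection was not tested.

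Some other genes were ordered along the selecting score and others were not. From 10 to 20, 20 to 50, 50 to 100, 100 to 200 and 200 or more per 10000, *Ctsg* stood at 1652, 2172, 2733, 4190 and 9007 CPM and *Ms4a3* at 195, 514, 734, 1158 and 2406 CPM. *Gata2* went from 676 CPM in the lowest range through 569, 421 and 172 to 4.73 CPM in the highest. *Cpa3* held between 916 and 1175 CPM in the first 4 ranges and was at 110 CPM in the highest. *Ly6c2* went from 4.98 to 687 CPM. In the same ranges *Prg2* stood at 3046, 7138, 8313, 9773 and 374 CPM and *S100a8* at 1117, 495, 3091, 0 and 8031 CPM. *Kit* stood at 104, 103, 89.3, 105 and 85.1 CPM, without an order. The lowest range held 124 cells, of which 54 were low-count cells. The highest range held 44 cells, 14 of the S100a8 set and 25 of the remaining cells, so the trend and the mix of sets cannot be told apart. In Control-1 the bone stroma and vessel list was at 21770 CPM in that range and at 450 CPM in Control-2, and its part in the levels was not tested.

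The lists behind the sets were drawn up after the values had been seen, so the p-values of the sets support no difference between the groups. Between the groups, the S100a8 set as a share of primary granule cells did not overlap, at 1.13% and 6.38% in Control and 26.1% and 15.4% in Fracture (exact permutation p = 0.333). In cells it was 3, 6, 6 and 2, and as a share of all barcodes it was 0.0235% and 0.0757% against 0.0506% and 0.0156%, which overlapped (exact permutation p = 0.667). The Cpa3 set was 47.4%, 51.1%, 47.8% and 61.5% of primary granule cells (exact permutation p = 0.667). The Prg2 set was 12.8% and 18.1% in Control, 0 of 23 cells in Fracture-1, which allows a share of up to 13.04% (3 counts of the total), and 2 of 13 cells in Fracture-2. The remaining cells were 19.9%, 9.57%, 26.1% and 7.69%. Control contributed all 64 low-count cells, whose median of 1104 UMIs lies below the lowest total in the Fracture tables, so their shares cannot be compared. For this reason the S100a8 share was also taken over cells with 5 or more selecting UMIs, where it was 1.39% and 7.50% against 26.1% and 15.4%.

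**Figure D3:**
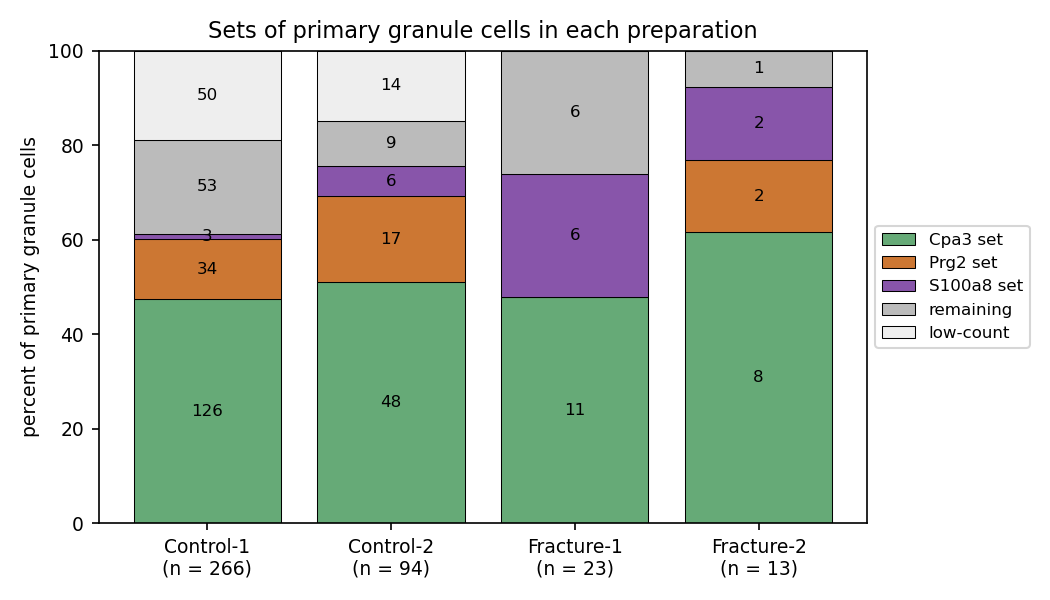
Percent of primary granule cells in each set, stacked, for the 4 preparations, with the number of cells printed in each segment. The S100a8 set is 3 of 266, 6 of 94, 6 of 23 and 2 of 13 cells, and the low-count cells are in the Control preparations alone.

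The lists were also counted in other cells. The S100a8 list was held by 2.78% of Control and 22.2% of Fracture primary granule cells, by 0 of 299 Control and 0 of 14 Fracture Irf8-positive cells, which allows up to 1.00% and 21.4%, and by 0.220% of Control Mcpt8/Prss34-high cells. In endothelial barcodes, selected on *Cdh5* and lacking the selecting genes, it was held by 0.107% in Control and 0.216% in Fracture, at median depths of 4652 and 7739 UMIs against 10501 and 9015 in primary granule cells. The Cpa3 list was held by 62.2% of Control and 55.6% of Fracture primary granule cells, by 94.6% and 96.2% of Mcpt8/Prss34-high cells and by 0 Irf8-positive cells. Outside the primary granule cells, 198 barcodes held the S100a8 list, 104 in Control and 94 in Fracture, and 30 held the Prg2 list.

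A fit between groups was added although Fracture-2 had only 13 cells, below the 20 planned. Of 7672 genes, 0 were called by edgeR's quasi-likelihood test at a Benjamini-Hochberg adjusted p under 0.05 (0% of genes in either direction), 794 had an unadjusted p under 0.05, and DESeq2 called 27. Leaving out 1 preparation at a time gave 98 calls without Control-1, 99 without Control-2, 0 without Fracture-1 and 3 without Fracture-2, where a lone preparation is assumed to vary like the others. The values by preparation that follow are therefore descriptions. The 9 tested genes of the specific granule list gave 0 calls, with a median log2 fold change of 2.44 beside -0.04 over all genes. Of 10 interferon-stimulated genes, 7 were tested and gave 0 calls and a median of 2.62, with 6 at an unadjusted p under 0.05. *Ifit1*, *Oasl2* and *Rsad2* were near the floor in both Control preparations and passed the filter on low counts through their Fracture levels. Neither this median nor these p-values therefore support a rise of the list. The basophil and mast list gave 0 of 9 and a median of -0.52, the ribosome biogenesis list 0 of 10 and 0.34, and the immediate early list 0 of 11 and -0.70. The S phase and G2M lists had medians of 0.38 and -0.004 with 0 of 15 called in each.

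Genes of the S100a8 and Prg2 sets spread widely between preparations. *S100a8* stood at 33.9, 3672, 11948 and 12341 CPM and *S100a9* at 4.47, 3755, 14847 and 15087 CPM in Control-1, Control-2, Fracture-1 and Fracture-2. *Camp* stood at 0.373, 2806, 10619 and 5133 CPM and *Ngp* at 0.373, 806, 2984 and 588 CPM. Fracture levels of *S100a8*, *S100a9* and *Camp* lay above both Control levels, while *Ngp* overlapped. Few cells carried them, since 9 of 23 Fracture-1 and 2 of 13 Fracture-2 cells had an *S100a8* UMI and 1 cell gave 1120 of the 2851 and 799 of the 1510 UMIs. *Prg2* stood at 5227 and 7821 CPM in Control, 0 in Fracture-1 and 4119 in Fracture-2, where 1 cell gave 481 of 504 UMIs.

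*Cpa3* and *Gata2* of the Cpa3 list stood lower in both Fracture preparations, although neither was called. *Cpa3* stood at 919, 1003, 557 and 654 CPM and *Gata2* at 430, 520, 281 and 237 CPM. *Fcer1a* and *Hdc* of the same list were also lower in both. *Ms4a2* overlapped, at 164, 204, 77.9 and 219 CPM when scaled by the normalisation of the fit. *Myc* stood at 141, 128, 62.9 and 57.2 CPM and the retention receptor *Cxcr4* at 207, 167, 67.0 and 40.9 CPM. The immediate early gene *Ier2* stood at 708, 549.5, 360.4 and 310.6 CPM. By contrast *Spi1* (PU.1) stood at 161, 212, 222 and 302 CPM and *Cebpe* at 162, 291, 172 and 253 CPM, which overlapped for *Cebpe* but not for *Spi1*. *Kit* stood at 103, 96.2, 41.9 and 123 CPM, with only 10 and 15 UMIs in the Fracture preparations.

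Interferon-stimulated genes stood higher in the Fracture preparations, on few UMIs and with 0 called. *Isg15* stood at 9.69, 13.9, 71.2 and 155 CPM, but in Fracture-2 1 cell gave 17 of its 19 UMIs, and *Rsad2* stood at 9.69, 2.92, 62.9 and 147 CPM, with 1 cell giving 15 of 18. Single cells also carried genes of other types in Fracture-1, where 1 cell gave 2698 of 2777 *Spp1* UMIs and 1 cell 474 of 494 *Hbb-bs* UMIs. The bone stroma and vessel list (18 genes, none at 0 in all preparations) summed to 9839, 1012, 6022 and 3081 CPM, and its part in the levels above was not tested.

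**Figure D4:**
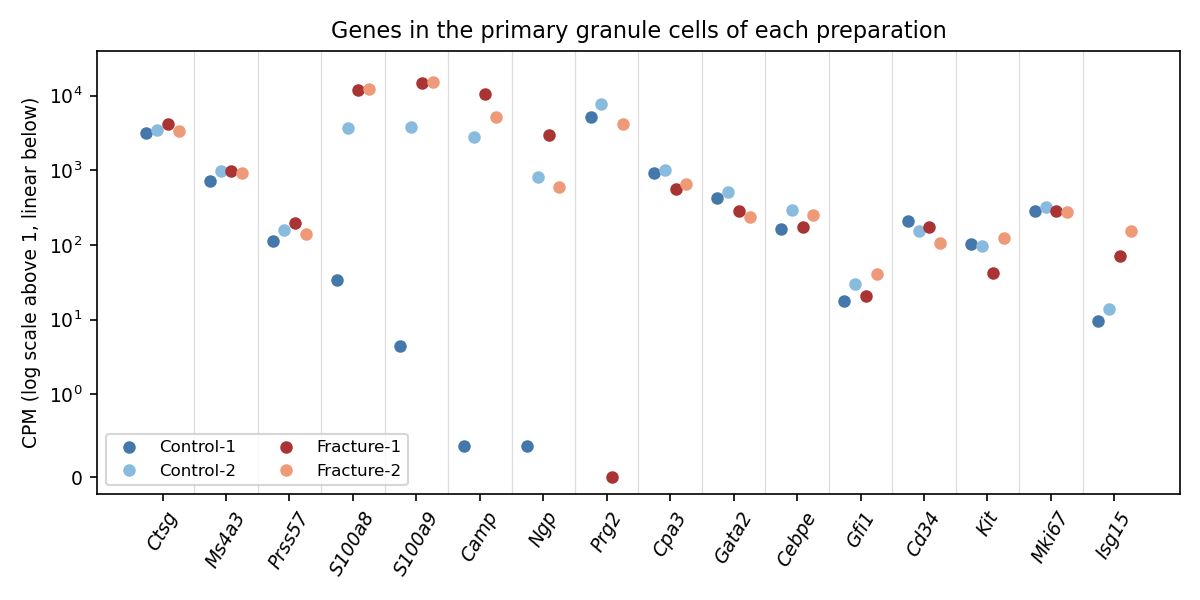
Level of 16 genes in the primary granule cells (CPM, log scale above 1 and linear below), 1 point per preparation. *S100a8*, *S100a9* and *Camp* are lowest in Control-1, *Prg2* is at 0 in Fracture-1, and *Ctsg* lies between 3190 and 4149 CPM in all 4.

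To compare shares of cells at equal depth, the share expected when each cell is thinned to 1000 UMIs was computed. Shallower cells were left out, which removed 27 cells of Control-1, 1 of Control-2 and 0 of either Fracture preparation. *Ltf*, *Camp* or *Ngp* was then expected in 0.0909% and 3.30% of Control and 13.6% and 15.4% of Fracture primary granule cells (exact permutation p = 0.333), against 0.0118 to 0.421% of endothelial barcodes. In primary granule cells these shares stand for 0.217 of 239, 3.07 of 93, 3.13 of 23 and 2 of 13 cells in Control-1, Control-2, Fracture-1 and Fracture-2. Control-2 and Fracture-1 thus differed in total more than in cells with these genes. Without thinning the sign of the difference between the groups was the same, on 2, 5, 4 and 2 cells. *Mki67* or *Top2a*, genes of dividing cells, was expected in 43.0% and 40.5% of Control and 41.9% and 37.6% of Fracture cells (exact permutation p = 0.667), against 2.29 to 11.9% of endothelial barcodes. The direction turned when cells were thinned to 3000 UMIs, leaving out 82 and 16 Control cells (60.7% in Control and 63.5% in Fracture on average) and without thinning (69.4% and 79.3%), each without overlap at the smallest possible exact permutation p of 0.333. The same genes were expected in 57.6% and 62.5% of Irf8-positive and 35.8% and 36.9% of Mcpt8/Prss34-high cells of the Control preparations. *Cd34* or *Kit* was expected in 28.2% and 21.9% of Control and 17.5% and 19.0% of Fracture cells (exact permutation p = 0.333), but the sign turned without thinning, and endothelial cells express *Cd34* themselves.

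Primary granule cells were then set against the Irf8-positive cells of the same Control preparations, which meet the same granule gene thresholds. The comparison asks what else differs between cells with and without Irf8, the factor of the monocyte and dendritic branch. Of 9832 genes tested without the 6 selecting genes, edgeR called 3587 (36.5%), 1859 (18.9%) higher and 1728 (17.6%) lower in primary granule cells. Without the Cpa3 set it called 1932. Because 2 pairs left 1 residual degree of freedom and the fit took 1 spread for all genes, adjusted p-values of single genes are not printed, and the SEs below do not measure a gene's own spread between the preparations. Here and in the next comparison, each SE is the absolute log2 fold change divided by the square root of the test's F value. DESeq2 and a fit without the preparation as a block called the same genes in the same direction for 482 higher and 393 lower, and every gene named as higher or lower below is among these unless stated. Counts by list are those of edgeR, followed by the number that all 3 fits called. CPM of single genes in this comparison and the next are scaled by the normalisation of each fit. They therefore differ from the plain CPM of the same cells given above.

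Azurophil granule genes were mostly higher, with 8 of 10 tested genes called higher (7 by all 3 fits), 0 lower, and a median log2 fold change of 0.90 beside 0.01 over all genes. *Ctsg* stood at 3197 and 3600 CPM compared with 1930 and 1913 CPM in Irf8-positive cells, a log2 difference of 0.82 ± 0.05 (SE). *Ms4a3* (723 and 998 against 119 and 155 CPM) differed by 2.64 ± 0.09, *Prss57* by 1.42 ± 0.13 and *Srgn* by 2.25 ± 0.06. *Cd63*, a membrane protein of granules, differed by 5.18 ± 0.09. *Lyz2* and *Ctsc* were not called, at -0.10 ± 0.10 and -0.06 ± 0.15. Without the S100a8 set *Lyz2* was called lower (-0.79).

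Transcription factors split, with 9 of 15 called higher and 4 lower (6 and 3 by all 3 fits). *Gata2* stood at 431 and 534 CPM against 11.2 and 5.84 CPM (5.52 ± 0.14), and *Gata1* at 59.0 and 72.7 against 0.914 and 0 CPM (6.34 ± 0.36). *Cebpe* was higher by 4.33 ± 0.16, *Cebpa* by 1.39 ± 0.13, *Myb* by 1.13 ± 0.08 and *Runx1* by 0.90 ± 0.09. Of all *Cebpe* UMIs in primary granule cells, 65.1% fell in the Prg2 set. *Spi1*, which drives both neutrophils and monocytes, was lower by a log2 fold change of -0.69 ± 0.09 and *Zeb2* by -0.56 ± 0.09. Without the Cpa3 set *Cebpa* was no longer called (0.05) and *Runx1* turned to -0.12, an alternative chosen after the data were seen.

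All 11 tested monocyte and dendritic genes were lower (8 by all 3 fits), with a median of -3.84. The 2 classes were split on *Irf8*, which belongs to the same list, so this fall is a description and gives no independent support. *Csf1r*, the receptor that supports macrophages, stood at 6.35 and 1.499 against 107 and 116 CPM (-4.53 ± 0.22). *Ly86* (-4.79 ± 0.15), *F13a1* (-5.15 ± 0.12), *Ctss* (-4.67 ± 0.23) and the monocyte chemokine receptor *Ccr2* (-3.97 ± 0.15) were among the 10 largest falls, together with *Tifab*, *Ighm*, *Pkib*, *Cfp* and *Pyhin1*. The NADPH oxidase list had 1 of 6 higher and 4 lower (0 and 2 by all 3 fits), with the subunit gene *Ncf1* at -1.65 ± 0.14.

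The 10 largest rises included genes of the Prg2, Cpa3 and S100a8 sets. *Prg2* stood at 5238 and 8044 against 4.57 and 0.834 CPM (10.60 ± 0.10), *Cpa3* at 921 and 1031 against 8.91 and 2.50 CPM (6.998 ± 0.13) and *S100a8* at 34.0 and 3776 against 2.29 and 0.834 CPM, a ratio that differed widely between the preparations. *Epx* was listed at 0 in the Irf8-positive cells, so it has no fold. *Rnase12*, *Csrp3*, *Prg3*, *Ms4a2*, *Sdsl* and *Fcer1a* completed the 10. The basophil and mast list had 8 of 10 higher, all 8 by all 3 fits, and a median of 4.82.

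Early progenitor genes were higher for 10 of 14 and lower for 3 (4 and 3 by all 3 fits), with a median of 0.85. *Kit* was higher by 1.36 ± 0.14 and *Angpt1*, a ligand of the Tie2 receptor, by 3.97 ± 0.18. *Hlf*, a transcription factor of blood stem cells, was higher by 2.87 ± 0.34. By contrast *Flt3* (-3.31 ± 0.16), *Cd34* (-0.68 ± 0.09) and *Cd48* (-0.95 ± 0.10) were lower. *Csf2rb*, the shared chain of the IL-3, IL-5 and GM-CSF receptors, was higher by 1.41 ± 0.13. Without the Cpa3 set neither *Cd34* (-0.38) nor *Csf2rb* (0.34) was called. Adhesion genes also split, with the integrin *Itga4* at 1.10 ± 0.12 and *Selplg* (-1.75 ± 0.10) and *Cd44* (-1.86 ± 0.12) lower. All 15 G2M genes were lower (8 by all 3 fits), with a median of -0.65, *Mki67* at -0.79 ± 0.08 and *Top2a* at -0.59 ± 0.07, and 11 of 15 S phase genes were lower (5 by all 3 fits). The Irf8-positive cells had median totals of 18785 and 25689 UMIs, against 9337 and 14817 in primary granule cells, and the part of depth in these differences was not tested. The bone stroma and vessel list was higher for 13 of 17 genes (1 by all 3 fits, median 1.97), at 9839 and 1012 CPM against 1863 and 599 CPM, and the immediate early gene *Dusp1* by 2.92 ± 0.10.

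The comparison with Mcpt8/Prss34-high cells used Control-1, Control-2 and Fracture-1. Most of these cells held the Cpa3 list. *Mpo* stood at 2113, 1808 and 953 CPM in them, whereas *Elane* stood at 74.1, 60.9 and 43.1 CPM and *Prtn3* at 193, 195 and 76.6 CPM, below the levels in primary granule cells, which were chosen on these genes. Of 10345 genes tested, edgeR called 2038 (19.7%), 874 (8.45%) higher and 1164 (11.3%) lower in primary granule cells, and 157 higher and 317 lower were also called by DESeq2 and without the block. The number depended on single preparations, with 285 calls without Control-1, 224 without Control-2 and 3578 without Fracture-1.

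The azurophil granule list did not separate the 2 classes, with 2 of 10 higher, 2 lower (1 each by all 3 fits) and a median of -0.21 beside 0.02 over all genes. *Ctsg* stood at 3027, 3429 and 4022 against 5810, 5474 and 3754 CPM (-0.51 ± 0.18, edgeR adjusted p = 0.0695). *Ms4a3* was at -0.07 ± 0.19 (edgeR adjusted p = 0.836). Both were called lower without Fracture-1 (-0.85 and -0.36), and without both the S100a8 set and Fracture-1, which then held too few cells (-0.97 and -0.60), and *Ctsg* also with no filter on low counts (-0.54) and in cells with at least 3000 UMIs (-0.52) or 5 selecting UMIs (-0.51). *Prss57* rose by 1.39 ± 0.18 (edgeR adjusted p = 0.000705), and *Cd63* was lower at -0.98 ± 0.12. The specific and gelatinase granule list was higher for 7 of 10 genes and lower for 1, with a median of 5.88, but none of the 7 (*Ltf*, *Camp*, *Ngp*, *Cd177*, *Chi3l3*, *Fcnb* and *Hp*) was called by all 3 fits. *S100a8* stood at 32.2, 3597 and 11583 against 11.4, 1.91 and 0 CPM (7.59 ± 1.95, edgeR adjusted p = 0.0238) and *Ngp* at 0.354, 790 and 2893 against 0.309, 0.273 and 0 CPM. The mature neutrophil list, which includes *S100a8*, was higher for 2 of 9 genes and lower for 4 (2 and 2 by all 3 fits), with *Ccl6* at -4.06 ± 0.19 and *Slpi* at -1.83 ± 0.15. *S100a8* was not called without the S100a8 set and Fracture-1 (0.28) or without Control-2 (4.87), nor was *Prss57* without Control-2 (1.43).

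*Cebpe* showed the clearest difference among the factors, at 154, 285 and 167 against 5.94, 7.51 and 0 CPM (4.97 ± 0.18, edgeR adjusted p = 7.67e-07). However, 65.1% of the *Cebpe* UMIs of primary granule cells lay in the Prg2 set, which held 12.6% of their UMIs. *Myb* (1.49 ± 0.15), *Myc* (1.51 ± 0.12) and *Gfi1* (1.58 ± 0.27) were also higher. *Gata2* (-1.34 ± 0.14), *Cebpa* (-1.40 ± 0.14) and *Cebpb* (-1.74 ± 0.16) were lower, and *Spi1* was at 0.06 ± 0.14. Factor genes gave 5 of 15 higher and 5 lower (4 and 3 by all 3 fits). The call of *Gfi1* was lost without Control-1 (1.92) or Control-2 (1.39) and that of *Myc* without Control-2 (1.37).

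Early progenitor genes were higher for 7 of 14 (5 by all 3 fits) and lower for 1, *Gata2*, with a median of 1.16. *Kit* stood at 97.7, 94.2 and 40.6 against 28.9, 31.5 and 23.9 CPM (1.66 ± 0.13) and *Cd34* at 197, 149 and 167 against 65.4, 49.3 and 67.0 CPM (1.57 ± 0.12), both without overlap. *Kit* was not called without Control-1 (1.42) or Control-2 (1.61), and *Csf2rb* (-1.11) and *Npm1* (0.99) were not called without Control-2. *Flt3* was higher by 4.04 ± 0.44 but not in the fit without the block. *Csf3r* was higher by 5.88 ± 0.55, *Cybb*, the catalytic oxidase subunit, by 4.60 ± 0.40 and *Ly6c2* by 5.01 ± 0.34, whereas *Csf2rb* was lower at -1.20 ± 0.13. Ribosome biogenesis genes were higher for 9 of 10 (6 by all 3 fits, median 0.90), with *Npm1* at 0.97 ± 0.12 and *Ncl* at 1.01 ± 0.16. *Trem3*, *Mt1*, *Muc13* and *Lyz2* were among the 10 largest rises, with *Lyz2* not called without the block, and *Chi3l3* was at 0 in all 3 samples of the other class.

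All 10 tested basophil and mast genes were lower (8 by all 3 fits), with a median of -3.32. The 2 classes were split on *Mcpt8* and *Prss34*, which belong to the same list. The fall of the list is therefore a description and gives no independent support. *Cpa3* was at -1.95 ± 0.13 and *Fcer1a*, the IgE receptor chain, at -3.49 ± 0.15. The chemokine gene *Ccl3* stood at 27.2, 19.99 and 0 against 2007, 1400 and 838 CPM (-6.31 ± 0.28), and *Ccl4*, *Cd200r3*, *Ccr1*, *Cyp4f18*, *Il6*, *Gzmb*, *Gp49a*, *Il18rap* and *Irg1* completed the 10 largest falls. Genes of protein folding in the endoplasmic reticulum were lower for 10 of 12 (3 by all 3 fits, median -1.01), with the chaperone *Hspa5* at -1.41 ± 0.14. The integrin *Itgb2* was lower at -2.40 ± 0.14, while *Itga4* (0.86 ± 0.12) and *Cd44* (0.98 ± 0.14) were higher, calls that were lost without Control-1 (0.72 and 0.95) or Control-2 (0.87 and 1.12). *Mki67* and *Top2a* were at -0.11 ± 0.12 and 0.05 ± 0.13 and were not called. Without the Cpa3 set, which also left out Fracture-1, both were called lower, at -1.04 and -0.64. The bone stroma and vessel list was lower for 11 of 18 genes, none of them by all 3 fits, at 9839, 1012 and 6022 CPM against 18510, 3303 and 86107 CPM, and its part in these differences was not tested.

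**Figure D5:**
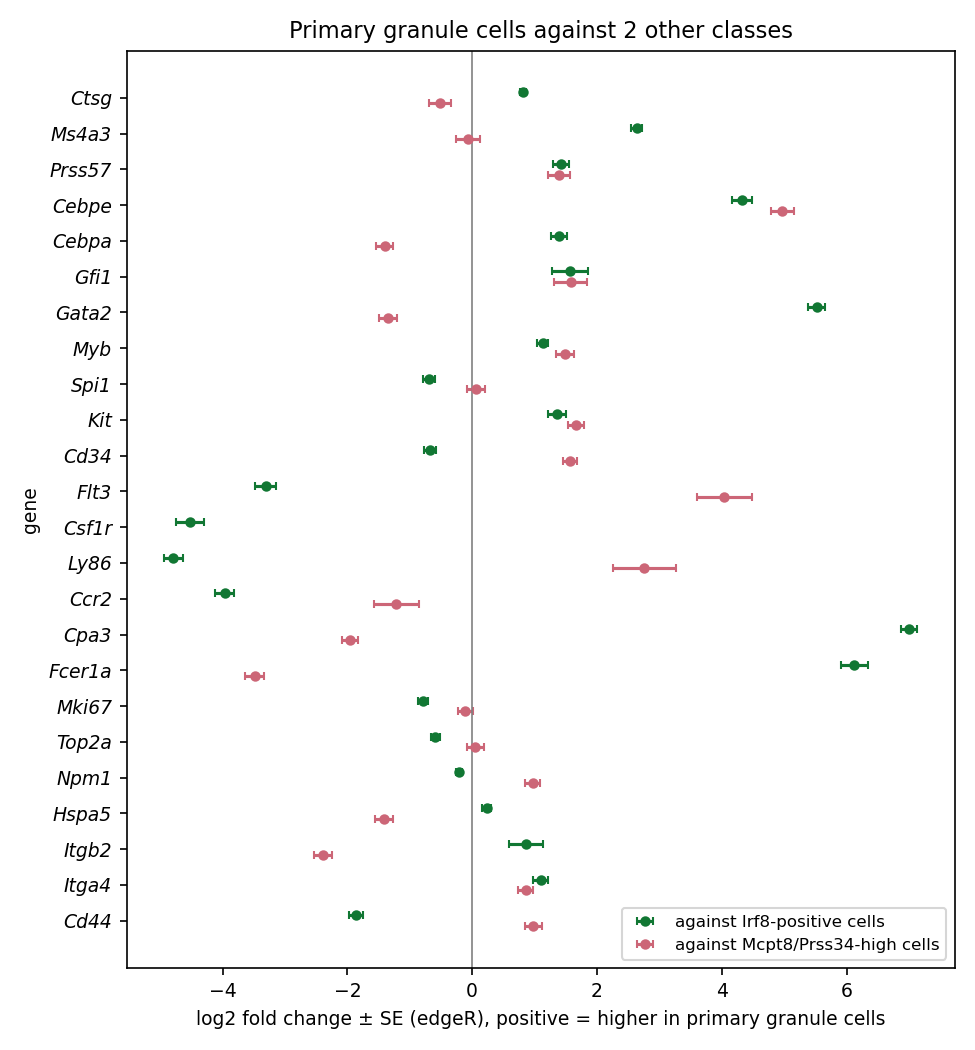
Log2 fold change with its SE (edgeR) for 24 genes, primary granule cells against Irf8-positive cells (green, 2 Control preparations) and against Mcpt8/Prss34-high cells (pink, Control-1, Control-2 and Fracture-1). Each SE was derived from the F value of the test. *Cebpe*, with 65.1% of its UMIs in the Prg2 set, lies at 4.33 and 4.97, and *Gata2* at 5.52 and -1.34.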

How the data were processed

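UMI counts per gene and barcode, 1 table per library, were used as deposited by the authors. The submitters' processing notes name bcl2fastq 2.19.1.403, UMI-tools 1.0.0, STAR 2.7.3a, Subread with featureCounts 1.6.4 and the mm10 build, and how barcodes were chosen for deposit is not given in the sources used here. The tables hold 48903 barcodes and 28956 genes. Barcodes with 500 to 6000 genes and at most 25% mitochondrial UMIs were kept, and 3486 Control and 89 Fracture barcodes were removed. Doublets were called per library with Scrublet (scanpy 1.11.5, expected rate 6%) and kept.

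The cells, the gene lists and the sets were chosen with earlier results of these data known. The libraries of a preparation were summed, and the preparation was the replicate. Shares were compared with the two-sided exact permutation test (scipy 1.17.1), and summed counts with edgeR 4.0.16 (quasi-likelihood test, TMM, filterByExpr, Benjamini-Hochberg), with the preparation as a block where cell classes of the same preparations were compared. Preparations with at least 20 cells of both classes entered these fits. The Fracture and Control fit, planned at 20 cells per preparation, was run at 10 instead. The fit was checked on counts simulated with its own estimated spread, which cannot show whether that spread holds for these data. DESeq2 1.42.0, other scaling and filters, other thresholds, thinning depths and leaving out 1 preparation were the alternatives, and leaving out a set of cells was added after the data were seen.

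Genes could be named from the lists. Each comparison also named, among called genes, the 10 most raised and the 10 most lowered by fold change, if their values did not overlap between the groups and averaged at least 50 CPM, leaving out the 6 selecting genes, haemoglobin genes and genes named Gm or Rik. For levels, the 20 most abundant genes could be named, and genes that mark a set or show the uneven spread of UMIs over cells were picked after their values were seen. A class of blood cells and a few genes are not reported here.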

Additional observations from a re-analysis of the deposited data

Results flagged for a closer look

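In Control, the Prg2 set was 8.53% of the primary granule cells in the first library of Control-1, compared with 16.8 to 18.4% in the other 3 Control libraries. In Fracture, the Cpa3 set was 71.4% of the primary granule cells in the second library of Fracture-2, which held 7 such cells, compared with 46.7 to 50% in the other 3 Fracture libraries. In both, the gap between this library and its nearest neighbour, as a part of the group's range, was above Dixon's 95% critical value for 4 samples (ratios of 0.835 and 0.865). Of 14 groups of 4 libraries examined, 2 were above it, where chance alone gives about 1 in 20. The low-count share was 0 in all 4 Fracture libraries, so that group could not be above it. Several of the groups are shares of the same cells and are not separate tests. The rate of 1 in 20 holds for independent libraries, whereas the 4 of a group came from 2 preparations, so it is only a guide. The libraries were summed within preparations in all comparisons.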

How the results depend on the processing

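The share of primary granule cells among barcodes was lower in Fracture under the 17 alternatives reported, with a difference of -1.49 percentage points that ranged from -2.73 to -0.0165, the smallest for the S100a8 set alone, where the groups overlapped. The single sets of cells among these alternatives are parts of the share and not other ways to compute it. They include the low-count cells, whose shares cannot be compared between the groups. A share among blood cell classes was also planned and is not reported here, so nothing is stated about the direction among blood cells. Between Fracture and Control, edgeR called 0 genes, DESeq2 27, the fit with a replicate block 68, the fit without called doublets 13, and those without the S100a8 set or without the Prg2 set 1 each, and leaving out 1 preparation gave 0 to 99. The replicate numbers share only a number between the groups, with a correlation of deviations of 0.0281 over 3100 genes. Against Irf8-positive cells the calls went from 3587 to 906 (DESeq2), 2035 (no replicate block) and 1932 (without the Cpa3 set), and leaving out 1 preparation could not be fitted. Against Mcpt8/Prss34-high cells they went from 2038 to 971 (DESeq2), 491 (no replicate block, 159 higher and 332 lower) and 3456 (without the S100a8 set, Control preparations only), and to 224 to 3578 without 1 preparation, where higher calls were 16.5 to 41.4% of all, compared with 42.9%.

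The *Mki67* or *Top2a* difference of -2.01 points turned to 2.82 at 3000 UMIs and 9.86 without thinning (exact permutation p = 0.333 for both), and ranged from -4.15 to 0.132 with 1 preparation left out. The *Cd34* or *Kit* difference of -6.85 points turned to 5.23 without thinning. Among named genes against Irf8-positive cells, *Runx1* turned to -0.12 and *Ctsc* to 0.000521 without the Cpa3 set, and *Lyz2* to 0.0934 (no replicate block), 0.0831 (without the Prg2 set) and 0.68 (without the Cpa3 set). Against Mcpt8/Prss34-high cells, the fits without the S100a8 set or without the Cpa3 set also left out Fracture-1, which then held under 20 cells. *Ms4a3* turned to 0.39 without the Cpa3 set and ranged from -0.36 to 0.14 without 1 preparation. *Spi1* turned to -0.0171 without called doublets and -0.13 without the S100a8 set, with a range of -0.0675 to 0.20. *Mki67* turned to 0.000508 without the Prg2 set, and *Top2a* to -0.0711 without the S100a8 set and -0.64 without the Cpa3 set, where it was called lower, with a range of -0.0614 to 0.12. Of the other values of named genes, 1074 kept their direction and side of the threshold, 18 lost the call and 9 gained it. The cause of these changes was not tested, except that fits with fewer preparations have fewer degrees of freedom. The Fracture and Control fit at 50 UMIs per 10000 was not run, since Fracture-2 then had 6 cells. The number of Fracture cells, 36, limits every Fracture value.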
